A study of Homo sapiens with 6 samples.

Results

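In human HepaRG cells, 9 genes that the transcription factor NRF2 is known to switch on were taken by gene name from the 58735 genes of the count table: HMOX1, NQO1, GCLC, GCLM, SLC7A11, GSR, TXNRD1, SRXN1 and OSGIN1. HepaRG is a human liver progenitor line that differentiates into cells with hepatocyte features. Cells of all 6 libraries had been differentiated with 1.8% DMSO and kept for 48 h after siRNA transfection, and a 24 h fatty acid load (800 µM oleic, 400 µM palmitic) followed. There were 3 PTPF and 3 STATF libraries, and what these abbreviations stand for is not spelled out. The siRNAs named for the series target STAT3 and the phosphatase gene PTPRD, and the series title describes the product of PTPRD as a STAT3 phosphatase. No control-siRNA library and no library without fatty acids was analysed here, so each value below is PTPF against STATF. Nothing states that replicates came from separate cultures. The p-values therefore set the difference between the groups against the scatter of these libraries only, and that scatter may be technical.

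NRF2, encoded by NFE2L2, is held in the cytoplasm by KEAP1, which hands it to a CUL3 ubiquitin ligase for degradation. Oxidants and electrophiles modify KEAP1, and NRF2 then accumulates, pairs with a small MAF protein and binds antioxidant response elements near its target genes, while BACH1 competes for many of the same elements. In liver the targets supply glutathione and thioredoxin, break down haem and reduce quinones, and they are known to respond to lipid overload and to drugs.

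Library totals ran from 33225627 to 40796767 counts. STAT3 averaged 443 ± 12.2 CPM (the usual library-size scaling of counts, with TMM factors) in PTPF libraries and 119 ± 10.6 CPM in STATF libraries (SD, n = 3 each; edgeR adjusted p = 2.47e-18). PTPRD averaged 11.5 ± 1.36 CPM in PTPF libraries and 11.5 ± 0.602 CPM in STATF libraries (SD, n = 3 each; edgeR adjusted p = 0.999), with a 95% interval of the log2 fold change from -0.19 to 0.19. Since the labels are not spelled out, every direction here is by label. Hepatocyte markers were abundant, with a summed level of 42266 to 49060 CPM in PTPF libraries and 40116 to 41009 CPM in STATF libraries. SERPINA1 alone stood at 22006 to 26023 CPM in PTPF libraries and 13994 to 14985 CPM in STATF libraries. Of the 15 markers 7 were lower and 2 higher, so the higher sum does not describe most of them. EPCAM and CD3E had 0 counts in all 6 libraries. Biliary and progenitor markers together still summed to 299 to 334 CPM in PTPF libraries and 287 to 304 CPM in STATF libraries. CD24 alone stood at 177 to 200 CPM in PTPF libraries and 118 to 122 CPM in STATF libraries. KRT19 (70.2 to 82.7 against 104 to 124 CPM) and SOX9 (14.5 to 15.7 against 18.7 to 21.1 CPM) were lower in PTPF libraries, so this sum does not describe each marker either.

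Of the 9 genes, 2 were higher and 5 lower in PTPF than in STATF libraries, and 2 did not pass. HMOX1 and SLC7A11 were higher, by 1.32-fold and 1.22-fold. SRXN1, OSGIN1, GSR, TXNRD1 and GCLC were lower, and GCLM and NQO1 did not pass an adjusted p of 0.05 in edgeR's quasi-likelihood test. All 9 entered the test among 17844 genes, of which 21.6% passed, 10.1% higher and 11.6% lower. All but NQO1 had a mean log2 CPM of 5 or more, and at that level 36.7% of 5250 genes passed, 17.4% higher and 19.3% lower. In 7 of the 9 the ranges of the groups did not overlap, as in 35.7% of all genes tested (17.3% higher, 18.4% lower). No difference reached 1.5-fold: the median size among the 7 that passed was 0.32 on the log2 scale, against 0.35 among all genes that passed. The median log2 fold change of the 9 was -0.15, and that of all genes tested was 0.00.

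**Figure D1:**
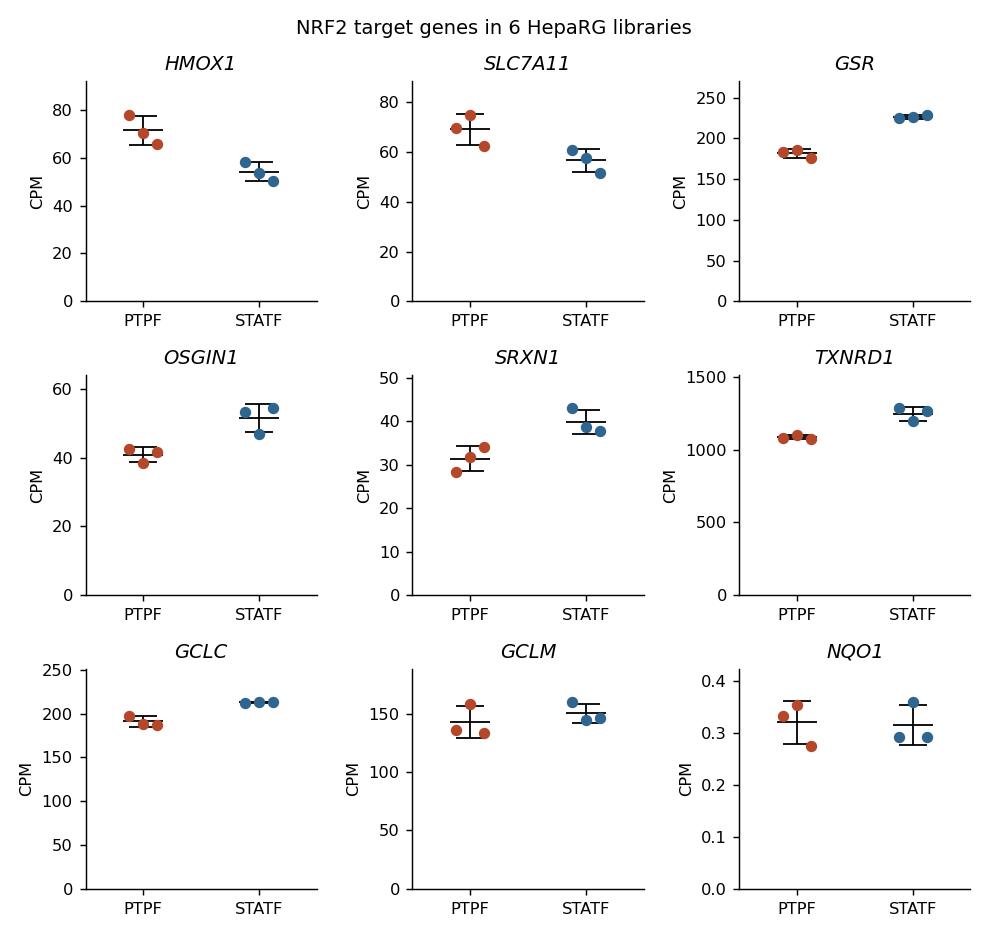
Level in CPM (vertical axis, from 0) of each gene in the 3 PTPF and 3 STATF libraries. Points are libraries and bars give the mean and SD. HMOX1 and SLC7A11 lie higher in all 3 PTPF libraries, GSR, OSGIN1, SRXN1, TXNRD1 and GCLC lie lower, and the groups overlap for GCLM and NQO1.

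HMOX1 encodes haem oxygenase 1, which opens the haem ring to give biliverdin, carbon monoxide and iron. The gene lies on chromosome 22 from 35380361 to 35394214 (GRCh38, plus strand), and none of its exon bases belongs to another annotated gene. HMOX1 stood at 78.0, 70.4 and 65.8 CPM in PTPF libraries, against 58.4, 53.7 and 50.3 CPM in STATF libraries. The lowest PTPF library was above the highest STATF library. The log2 fold change was 0.40 (SE 0.0661, edgeR adjusted p = 5.19e-05), the largest in size of the 9.

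NQO1 encodes a quinone reductase that is widely used as a readout of NRF2 activity. It lies on chromosome 16 from 69706996 to 69726951 (minus strand). It was close to absent in these cells, with 11, 13 and 9 counts in PTPF libraries and 11, 15 and 11 counts in STATF libraries. These counts correspond to 0.321 ± 0.0407 CPM in PTPF libraries and 0.315 ± 0.0384 CPM in STATF libraries (SD, n = 3 each), where a count of 0 would allow up to 0.0735 to 0.0903 CPM. The groups overlapped, and the log2 fold change of 0.02 had a 95% interval from -0.86 to 0.91 (edgeR adjusted p = 0.98). That interval holds a 1.5-fold change in either direction, so a change of that size was not detectable at this depth. An annotated antisense gene shares 17.7% of its exon bases, and that gene had 0 counts.

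The next 4 genes make or restore glutathione. SLC7A11 (chromosome 4, 138164097 to 138242349, minus strand) encodes the cystine importer xCT, which brings in the amino acid that limits glutathione synthesis. SLC7A11 stood at 69.8, 75.0 and 62.4 CPM in PTPF libraries, against 60.6, 57.4 and 51.7 CPM in STATF libraries. The groups did not overlap, though the lowest PTPF library was close to the highest STATF library. The log2 fold change was 0.29 (SE 0.068, edgeR adjusted p = 0.00284). An antisense gene, SLC7A11-AS1, shares 9.0% of its exon bases and had 4 to 28 counts per library, and the strand setting of the counting is not given in the sources used here.

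GCLC and GCLM encode the catalytic and the modifier subunit of glutamate-cysteine ligase, the first and rate-limiting enzyme of glutathione synthesis. GCLC (chromosome 6, 53497341 to 53616970, minus strand) stood at 198, 188 and 187 CPM in PTPF libraries, against 212, 213 and 213 CPM in STATF libraries. The PTPF libraries were lower, and the STATF libraries differed by a SD of only 0.401 CPM. At -0.15 on the log2 scale (SE 0.0534, edgeR adjusted p = 0.0381), it was the smallest difference that passed. The call ended when any library other than PTPF replicate 1 was left out, with adjusted p-values up to 0.138, and with upper-quartile scaling (0.0512) or no filter (0.05002). A neighbouring lincRNA, AL033397.1, which shares exon bases with GCLC on the same strand, was also lower, by -0.40 on the log2 scale (edgeR adjusted p = 0.000602).

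GCLM (chromosome 1, 93885205 to 93909456, minus strand) stood at 136, 158 and 134 CPM in PTPF libraries, against 159.6, 145 and 147 CPM in STATF libraries. One library of each group was high and the groups overlapped. The log2 fold change of -0.08 had a 95% interval from -0.21 to 0.05 (edgeR adjusted p = 0.45). Per kilobase of gene length the ratio of GCLC to GCLM was 0.915, 0.745 and 0.878 in PTPF libraries and 0.833, 0.922 and 0.911 in STATF libraries, and these values overlapped (two-sided exact permutation p = 0.6).

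GSR encodes glutathione reductase, which uses NADPH to turn oxidised glutathione back into its reduced form. It lies on chromosome 8 from 30678061 to 30727999 (minus strand) and shares no exon base with another gene. GSR stood at 184, 185 and 176 CPM in PTPF libraries, against 224, 226 and 229 CPM in STATF libraries. The groups were well apart (log2 fold change -0.32, SE 0.0535, edgeR adjusted p = 5.61e-05).

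TXNRD1 and SRXN1 belong to the thioredoxin arm. TXNRD1 encodes the cytosolic thioredoxin reductase, a selenoprotein, and lies on chromosome 12 from 104215779 to 104350305 (plus strand). TXNRD1 stood at 1083, 1099.9 and 1074 CPM in PTPF libraries, against 1283, 1194 and 1267 CPM in STATF libraries. All 3 PTPF libraries were lower than every STATF library. The log2 fold change was -0.20 (SE 0.0589, edgeR adjusted p = 0.014). The call ended without PTPF replicate 3 (0.0605), STATF replicate 1 (0.088) or STATF replicate 3 (0.0812).

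SRXN1 encodes sulfiredoxin, which repairs peroxiredoxins that peroxide has over-oxidised. The gene lies on chromosome 20 from 646615 to 653370 (minus strand). SRXN1 stood at 28.3, 31.8 and 33.97 CPM in PTPF libraries, against 43.0, 38.7 and 37.8 CPM in STATF libraries. The PTPF libraries were lower without overlap, and the log2 fold change was -0.34 (SE 0.0707, edgeR adjusted p = 0.000604). A second protein-coding gene on the same strand, AL121758.1, covers 85.0% of its exon bases and was given 5 to 15 counts per library. How reads common to both were assigned is not given in the sources used here, so the SRXN1 level is uncertain.

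OSGIN1 encodes oxidative stress induced growth inhibitor 1, described as restraining proliferation. It lies on chromosome 16 from 83948282 to 83966332 (plus strand). OSGIN1 stood at 42.5, 38.4 and 41.7 CPM in PTPF libraries, against 53.2, 46.8 and 54.3 CPM in STATF libraries. It was lower in each PTPF library than in any STATF library (log2 fold change -0.33, SE 0.0652, edgeR adjusted p = 0.000362). A same-strand gene shares 13.9% of its exon bases and had 10 to 29 counts per library. Two-sided exact permutation tests gave 0.1, the smallest p that 3 against 3 libraries allow, for each of the 7 genes whose groups were separate, 0.4 for GCLM and 1 for NQO1.

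**Figure D2:**
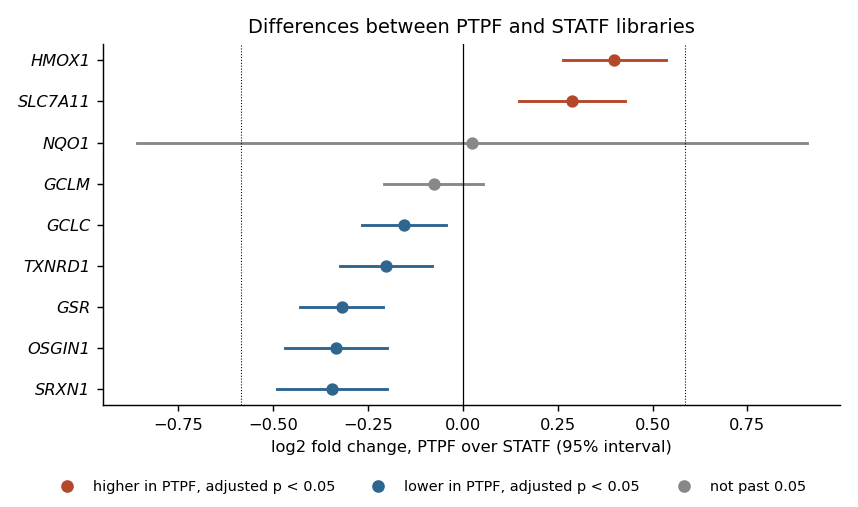
Log2 fold change of PTPF over STATF libraries (horizontal axis) with the 95% interval of the edgeR fit, from 3 libraries each. HMOX1 (0.40) and SLC7A11 (0.29) lie to the right of 0, 5 genes lie to the left down to -0.34 for SRXN1, and dotted lines mark 1.5-fold.

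Promoter sequences are shown for the genes in which a core antioxidant response element or the related AP-1 element was found by letters, since NRF2 acts through the first. RefSeq promoters (GRCh38.p14), 250 bases before to 50 after each start, were at hand for 6 of the 9 genes in 7 entries. The core element was searched on both strands as TGACNNNGC and the AP-1 element as TGACTCA. At least 1 core match lay in 3 of the 7 entries, 1 of GCLM and 2 of TXNRD1, against 13.3% of 35116 promoter entries, and an AP-1 match in 1 of the 7, that of OSGIN1, against 4.95% of entries. A match to the core that begins TGACTCA counts for both, and none of those printed does. Capitals mark the match, which reads on the given strand as the element or as its reverse complement, and each stretch runs 5′ to 3′ on the strand of its gene.
GCLM, chr1:93909426-93909494, minus strand: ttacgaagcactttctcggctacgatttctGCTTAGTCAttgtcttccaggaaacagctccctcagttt
TXNRD1, upstream start, chr12:104215650-104215788, plus strand: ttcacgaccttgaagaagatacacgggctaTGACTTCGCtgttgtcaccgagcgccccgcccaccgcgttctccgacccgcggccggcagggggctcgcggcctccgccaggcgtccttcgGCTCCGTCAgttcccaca
TXNRD1, downstream start, chr12:104286900-104286968, plus strand: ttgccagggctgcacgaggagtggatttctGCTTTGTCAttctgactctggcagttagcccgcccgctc
OSGIN1, chr16:83953113-83953179, plus strand: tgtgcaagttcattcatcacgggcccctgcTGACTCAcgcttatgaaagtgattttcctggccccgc
The GCLM match begins 34 bases before the start and reads GCTTAGTCA, the reverse complement of TGACTAAGC. TXNRD1 has 1 match 99 bases and 1 match 8 bases before its upstream start, and 1 match 102 bases before its downstream start. In the OSGIN1 promoter the AP-1 letters begin 97 bases before the start. The GCLC, NQO1 and SRXN1 windows held no match to either motif. A gene with the core in its window thus passed the test (TXNRD1, lower) and another did not (GCLM), and genes with no core in the window were among those that were lower. Elements outside these windows were not searched, so whether such elements go with the differences cannot be read from this.

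Levels were compared between genes per kilobase of the deposited gene length. For these genes that length equals all annotated exon bases, whichever transcripts were expressed, so the order between genes is approximate. TXNRD1 stood highest, at 162 ± 1.94 CPM per kilobase in PTPF libraries and 186 ± 7.14 in STATF libraries (SD, n = 3 each). GSR followed at 48.3 ± 1.38 CPM per kilobase in PTPF libraries and 60.2 ± 0.634 in STATF libraries (SD, n = 3 each). GCLM, HMOX1 and GCLC came next, and their ranges over the 6 libraries overlapped, from 20.9 to 32.4 CPM per kilobase. Among these 3, HMOX1 had the highest mean in PTPF libraries, 29.7 ± 2.56 CPM per kilobase, and the lowest in STATF libraries, 22.5 ± 1.69 (SD, n = 3 each). OSGIN1 (11.1 to 15.7 CPM per kilobase over the 6 libraries) and SRXN1 (10.5 to 15.9) did not differ beyond their spread, and the SRXN1 level is uncertain for its shared exons. SLC7A11 lay lower, at 5.36 to 7.77 CPM per kilobase, and NQO1 lowest, at 0.0847 to 0.111. The mean level of TXNRD1 was 1779 times that of NQO1 per kilobase.

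**Figure D3:**
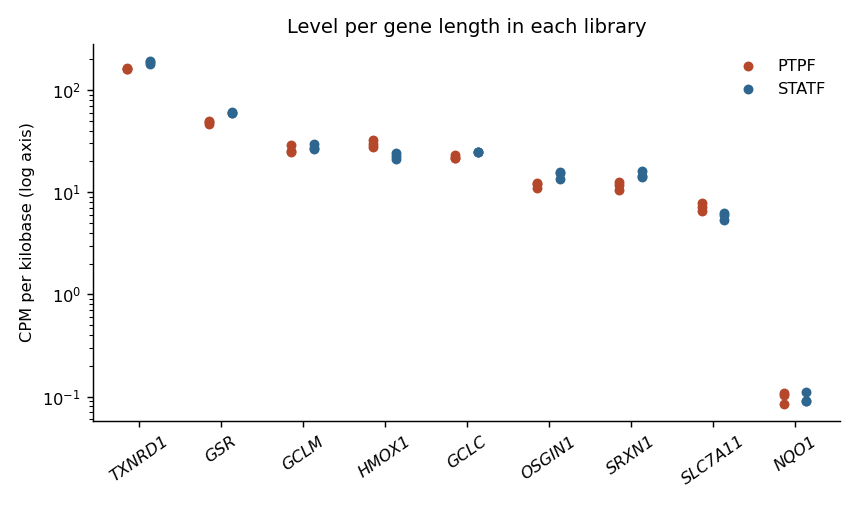
Level of each gene in CPM per kilobase of gene length (vertical log axis) in the 3 PTPF and 3 STATF libraries, ordered by the mean of the 6. TXNRD1 lies above 160 in each library and NQO1 near 0.1, and GCLM, HMOX1 and GCLC overlap.

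Ratios within a library do not depend on the scaling between libraries, and those of a higher to a lower member restate their opposite directions. Per kilobase, HMOX1 was 0.664, 0.594 and 0.586 times GSR in PTPF libraries, against 0.407, 0.372 and 0.343 times in STATF libraries. SLC7A11 was 0.316, 0.357 and 0.299 times GCLC in PTPF libraries, against 0.256, 0.242 and 0.218 times in STATF libraries. Both ratios were higher in each PTPF library than in any STATF library (two-sided exact permutation p = 0.1 each, the smallest that this design allows). That order was fixed by pairing a higher with a lower gene whose groups were already separate, so these p-values add no support. The ratio of SRXN1 to TXNRD1 overlapped, at 0.0718 ± 0.00689 in PTPF libraries and 0.0793 ± 0.00467 in STATF libraries (SD, n = 3 each; two-sided exact permutation p = 0.2). The ratio of GSR to TXNRD1 was lower without overlap, at 0.298 ± 0.0057 in PTPF libraries and 0.324 ± 0.0128 in STATF libraries (SD, n = 3 each; two-sided exact permutation p = 0.1). For 8 such ratios computed, the smallest adjusted p could not fall under 0.1.

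Over the 6 libraries, the log2 CPM of the 5 lower genes had Pearson's r of 0.71 to 0.96 with each other, and of -0.87 to -0.70 with HMOX1 and SLC7A11. The libraries share their group, and after each group's mean was removed the values among the 5 ran from -0.81 to 0.62, so the common pattern is the difference between the labels. HMOX1 and SLC7A11 had r = 0.91 over the 6 libraries. Without the group means it was 0.71, which does not set this pair apart, since SLC7A11 with GCLM had 0.77 and the higher genes with the lower ones ran from -0.45 to 0.68. Among 11712 other protein-coding genes at a mean log2 CPM of 1 or more, the 3 with the pattern most like HMOX1 were SAR1A, RCCD1 and POLE3 (r = 0.993 to 0.997). For GSR they were ANKRD29, SPTLC3 and CD274, and for OSGIN1 they were RTN1, PACSIN2 and CAT, which encodes the peroxide-degrading catalase (r = 0.991 to 0.999 for these 6). With 6 libraries in 2 groups such values are common: 556 genes exceeded r = 0.95 with GSR, 197 with OSGIN1 and 149 with HMOX1.

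The regulators of NRF2 showed small differences, 1 higher and 3 lower of 13 in PTPF libraries (median log2 fold change -0.07). Of all genes tested 10.1% were higher and 11.6% lower, or 17.4% and 19.3% at a mean log2 CPM of 5 or more. The counts of this list and of those below were not tested against these shares and are given as description only. The mRNA of NRF2 itself, NFE2L2, averaged 101 ± 5.4 CPM in PTPF libraries and 94.2 ± 3.35 CPM in STATF libraries (SD, n = 3 each; log2 fold change 0.10, edgeR adjusted p = 0.237). KEAP1, its inhibitor, averaged 95.5 ± 6.06 CPM in PTPF libraries and 103 ± 5.47 CPM in STATF libraries (SD, n = 3 each; edgeR adjusted p = 0.188). Both were picked out for their role and not by the rule for named genes. The repressor BACH1 was the higher one, at 91.4, 93.0 and 92.4 CPM in PTPF libraries against 78.0, 83.4 and 86.1 CPM in STATF libraries (log2 fold change 0.16, edgeR adjusted p = 0.0363), and no regulator was called higher when PTPF replicate 2, PTPF replicate 3, STATF replicate 1 or STATF replicate 2 was left out, with no filter, or with library totals as the only scaling. The lower ones were NFE2L1 (-0.42), a relative of NRF2 that drives proteasome genes, NFE2L3 (-0.41), another relative, and SQSTM1 (-0.21), the autophagy adaptor p62 that binds KEAP1 and is itself an NRF2 target. For SQSTM1, 22.04% of the exon bases are shared with neighbouring genes.

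**Figure D4:**
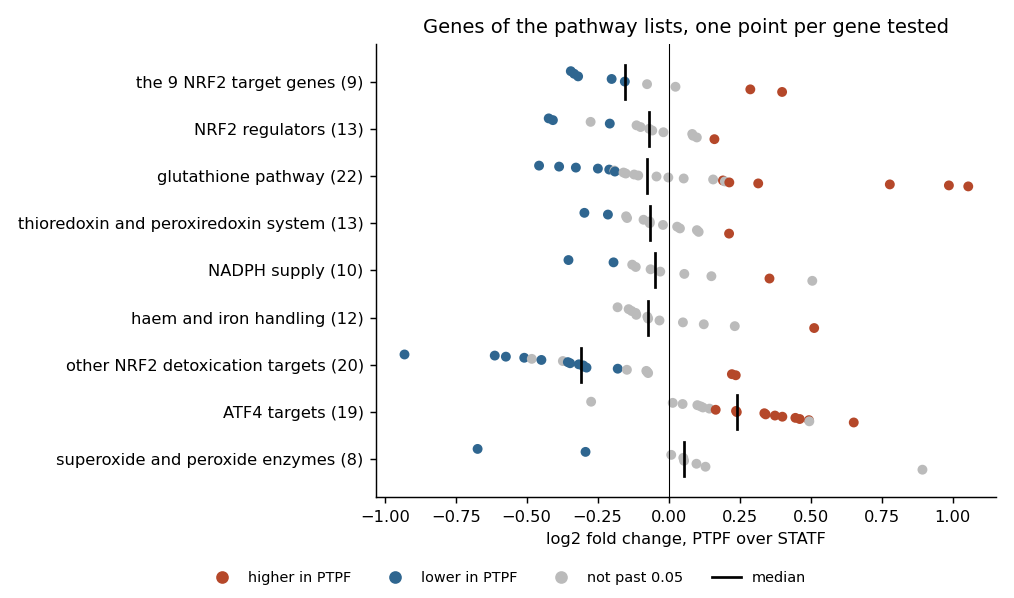
Log2 fold change of PTPF over STATF libraries (horizontal axis) for each gene tested in 8 pathway lists and for the 9 NRF2 target genes, with the number tested in brackets and the median as a bar. The detoxication targets lie mostly to the left (median -0.31) and the ATF4 targets mostly to the right (median 0.24).

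Other detoxication genes known as NRF2 targets were more often lower than higher, with 12 of 20 lower and 2 higher in PTPF libraries (median log2 fold change -0.31). Of all genes tested 11.6% were lower and 10.1% higher, or 19.3% and 17.4% at a mean log2 CPM of 5 or more. AKR1B10, an aldo-keto reductase and one of the most NRF2-responsive human genes, stood at 239.7, 228 and 200.2 CPM in PTPF libraries against 444, 415 and 414 CPM in STATF libraries (log2 fold change -0.93, edgeR adjusted p = 9.3e-12). The epoxide hydrolase EPHX1 (-0.51) and the carbonyl reductase CBR1 (-0.45) were lower, as was the glucuronosyltransferase UGT1A6 (-0.57), whose exons are shared with the other UGT1A genes. The bile and drug exporters ABCC2 (-0.32) and ABCC3 (-0.30) were lower too, while the exporter ABCC4 (0.24) and UGDH (0.22), which makes the sugar donor for glucuronidation, were higher, these 4 being named after their values were seen. Near-identical genes can share reads, and without 7 such genes of the AKR1C, UGT1A, TRIM16 and NMRAL families 6 of 13 were lower and 2 higher.

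Glutathione genes outside the 9 were split, 6 higher and 6 lower of 22, with a median log2 fold change of -0.08. GPX3, the secreted glutathione peroxidase, averaged 899 ± 61.9 CPM in PTPF libraries and 432 ± 28.9 CPM in STATF libraries (SD, n = 3 each; log2 fold change 1.05, edgeR adjusted p = 1.26e-12). GPX2, an epithelial glutathione peroxidase and a known NRF2 target, stood at 158, 128 and 156 CPM in PTPF libraries against 75.5, 72.4 and 75.4 CPM in STATF libraries (log2 fold change 0.99, edgeR adjusted p = 3.45e-11). The glutaredoxin GLRX was higher by 0.78, and the transferase GSTK1 had -0.39. SLC3A2, which forms the cystine importer together with SLC7A11, averaged 283 ± 20.01 CPM in PTPF libraries and 244 ± 7.98 CPM in STATF libraries (SD, n = 3 each; log2 fold change 0.21, edgeR adjusted p = 0.00902), and was named for that role. GSS, which completes glutathione after the ligase step and was also named for its role, had a log2 fold change of 0.19 (edgeR adjusted p = 0.0274), with overlapping groups.

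In the thioredoxin list 1 of 13 was higher and 2 were lower, with a median of -0.07. Thioredoxin itself, TXN, the substrate of TXNRD1, averaged 203 ± 10.4 CPM in PTPF libraries and 235 ± 14.2 CPM in STATF libraries (SD, n = 3 each; log2 fold change -0.21, edgeR adjusted p = 0.0086). SESN3 (-0.30), a sestrin, was the other lower gene, and TXNIP (0.21), which binds and inhibits thioredoxin, was the higher one. Of 6 peroxiredoxins 0 passed in edgeR (PRDX1 and PRDX6, named after their values were seen, had an unadjusted p under 0.05), and 5 list genes were lower without PTPF replicate 1. Among 10 genes of NADPH supply, which GSR and TXNRD1 draw on, 1 was higher and 2 lower, with a median of -0.05. The mitochondrial dehydrogenase IDH2 averaged 92.0 ± 6.07 CPM in PTPF libraries and 71.9 ± 1.48 CPM in STATF libraries (SD, n = 3 each; log2 fold change 0.35, edgeR adjusted p = 3.64e-05). NNT (-0.19), the mitochondrial transhydrogenase, was among the lower genes.

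Around HMOX1, 1 of 12 genes of haem and iron handling was higher in edgeR and 0 lower, with a median of -0.07. At an unadjusted p under 0.05, 2 were higher and 2 lower, DESeq2 and limma-voom also called 1 higher and 0 lower, and 4 were lower when only library totals were used and 2 without PTPF replicate 1. The higher gene was HPX, the plasma haem carrier hemopexin, which averaged 647 ± 86.1 CPM in PTPF libraries and 453 ± 21.8 CPM in STATF libraries (SD, n = 3 each; log2 fold change 0.51, edgeR adjusted p = 4.73e-05). Of 8 tested genes that make or remove superoxide and peroxide, SOD2 left out because it has 2 identifiers, 2 were lower, among them catalase (CAT), which averaged 251 ± 11.6 CPM in PTPF libraries and 307 ± 15.3 CPM in STATF libraries (SD, n = 3 each; log2 fold change -0.29, edgeR adjusted p = 0.000391). In edgeR 0 of these were higher and 1 was at an unadjusted p under 0.05, and DESeq2 and limma-voom called 0 higher and 1 lower, as did edgeR without any 1 PTPF library or without STATF replicate 1. The abundant SOD2 identifier, the mitochondrial superoxide dismutase, had a log2 fold change of 0.52 in the other direction (edgeR adjusted p = 4.53e-07). The list's median of 0.05 was -0.01 with library totals as the only scaling.

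ATF4, the transcription factor of the amino acid and integrated stress response, is a second known activator of SLC7A11. Whether ATF4 had a part in the SLC7A11 difference was not tested. Of 19 tested genes of its list, ATF4 included, 11 were higher in PTPF libraries and 0 lower in edgeR (median log2 fold change 0.24). The other 8 did not pass, and of all genes tested 10.1% were higher and 11.6% lower. At an unadjusted p under 0.05 the counts were also 11 and 0, DESeq2 called 10 higher and 0 lower, and limma-voom 11 and 0. ATF4 mRNA stood at 291, 283 and 262 CPM in PTPF libraries against 214, 224 and 224 CPM in STATF libraries (log2 fold change 0.34, edgeR adjusted p = 5.72e-05). The proline synthesis enzyme ALDH18A1 (0.49), the mTORC1 inhibitor DDIT4 (0.45) and the tRNA exporter XPOT (0.40) were higher. ASNS, named after its values were seen, overlapped between the groups. It stood at 5.82, 7.02 and 5.51 CPM in PTPF libraries against 5.81, 6.65 and 5.74 CPM in STATF libraries. CHAC1, which degrades glutathione and was named for that role, averaged 19.2 ± 0.708 CPM in PTPF libraries and 13.9 ± 2.17 CPM in STATF libraries (SD, n = 3 each; log2 fold change 0.46, edgeR adjusted p = 0.000417).

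Over the 8 pathway lists 50 of 117 genes passed, 23 higher and 27 lower, or 42.7% against 21.6% of all genes tested. Many list genes are abundant, and at a mean log2 CPM of 5 or more 39 of 83 passed, or 47.0% against 36.7% of all genes at that level. The lists were chosen with earlier results of these data known, so the larger shares may come from that choice. They are description only. When library totals alone set the scale, 18 were higher and 40 lower, and the share of higher calls among all genes was 28.1% in place of 46.6%, with the median of all genes at -0.06. All 7 calls among the NRF2 target genes held under that scaling, 2 higher and 5 lower. With single libraries left out, 41 to 57 of the list genes passed. The glutathione list then had 4 to 7 higher and 3 to 8 lower, with the fewest higher without STATF replicate 2 and the fewest lower without STATF replicate 3, and the detoxication list 1 to 2 higher and 11 to 13 lower. Of 15 hepatocyte markers 2 were higher and 7 lower, and of 5 biliary and progenitor markers tested 1 was higher and 2 lower. The biliary and progenitor markers summed to 299 to 334 CPM in PTPF libraries and 287 to 304 CPM in STATF libraries, and the higher PTPF values of CD24 weigh on that sum. Mesenchymal markers, with ACTA2 lower of 5 tested (log2 fold change -0.35, edgeR adjusted p = 0.000751), summed to 52.2 to 68.8 CPM in PTPF libraries and 54.1 to 72.3 CPM in STATF libraries, and endothelial and immune markers to 1.99 to 3.13 CPM in PTPF libraries and 3.14 to 3.81 CPM in STATF libraries. Of 3 endothelial and immune markers tested, edgeR called 0, also at an unadjusted p under 0.05, and DESeq2 and limma-voom called 0. Proliferation markers, with 1 of 5 higher, summed to 312 to 340 CPM in PTPF libraries and 297 to 333 CPM in STATF libraries. Mitochondrially encoded genes took 17.6% to 18.5% of counts in PTPF libraries and 18.7% to 19.5% in STATF libraries, and the 7 calls among the NRF2 target genes held without them. The part of the markers in the results was not tested, and in bulk RNA fewer cells of a type and less RNA per cell cannot be told apart.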

How the data were processed

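Polyadenylated RNA of 6 HepaRG libraries was sequenced. The submitters' processing notes name build GRCh38, HISAT2 2.0.5, featureCounts 1.5.0-p3 and CASAVA 1.8. How strand and multi-mapping reads were handled, and with which annotation release, is not given in the sources used here. Raw counts per gene were deposited by the authors, not normalized, for 58735 Ensembl genes, beside a deposited gene length in bases (other unit) that served for levels per kilobase. No row lacked a gene. Grouping followed the titles.

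After filterByExpr and TMM scaling (0.953 to 1.03), the robust quasi-likelihood test of edgeR 4.0.16 (R 4.3.3) was fitted on group alone. P-values were adjusted by Benjamini-Hochberg over the 17844 genes tested, and 0.05 was the threshold. Log2 fold changes are PTPF over STATF. Permutation tests used scipy 1.17.1 and log2 CPM used a prior count of 2. Floors (3 counts) cover counting error only. Exon overlaps came from GENCODE 29. On simulated data for PTPF against STATF (17550 genes tested), edgeR recovered 80% of 50 genes changed 1.5-fold and 98% of 50 changed 2-fold, with 5.5% false calls. Changes under 1.5-fold, such as those of the NRF2 target genes, were not simulated, nor were changes in genes as low as NQO1. The simulation thus does not give the power for these.

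Members and lists were chosen with earlier results of these data known, so lists are described by counts and medians. The rule names all 9 genes, STAT3, PTPRD and up to 4 passing genes per list by adjusted p, with the 2 most abundant of a list with none passing, plus 3 genes of like pattern for each of 3 members. Marker lists are given as counts and summed levels. Some list genes that the rule names are not reported here. SOD2, carried by 2 identifiers, was left out of list counts. Alternatives were RLE, upper-quartile and library-total scaling, other filters, DESeq2 1.42.0, limma-voom 3.58.1, a replicate block, leaving out each library or mitochondrial genes, a test against 1.5-fold and a stricter adjusted p (0.01). Replicates of a group differed by more than sampling noise (chi-square over its degrees of freedom was 4.32 to 12.0).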

Additional observations from a re-analysis of the deposited data

How the results depend on the processing

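HMOX1, SLC7A11, GSR, SRXN1 and OSGIN1 kept direction and call under all alternatives but the test against 1.5-fold. That test asks for a larger change by construction and ended every call among the 9 genes, leaving 0 of them (0 also at an unadjusted p under 0.05, with edgeR's glmTreat), 4 list genes and 303 of 3863 genes, at log2 fold changes of 0.40 (HMOX1), 0.29 (SLC7A11), -0.32 (GSR), -0.20 (TXNRD1), -0.34 (SRXN1), -0.33 (OSGIN1) and -0.15 (GCLC). DESeq2 and limma-voom each called 7 of the 9. An adjusted p of 0.01 left 2551 genes and ended the calls of GCLC (-0.15) and TXNRD1 (-0.20). GCLC was also not called with upper-quartile factors (-0.15) or no filter (-0.16), and the cause was not tested. Leaving out single libraries gave -0.18 to -0.14 for GCLC, -0.23 to -0.18 for TXNRD1, 0.33 to 0.46 for HMOX1 and 5 to 7 of the 9 called. NQO1, never called, changed sign with library totals alone (-0.039) and ran from -0.048 to 0.13 without single libraries. With a minimum of 50 counts it was not tested. Deviations of same-numbered libraries correlated at only 0.00 to 0.06, which does not settle whether the replicate numbers pair the libraries. A replicate block gave 4145 calls and the same 7 of 9, and every library but STATF replicate 3 and PTPF replicate 3 correlated best with its own number.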

Other observations

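Several antioxidant genes stood near 0 in these libraries and were removed by the filter on low counts, so the counts of list genes above leave them out. GSTP1, the pi-class glutathione transferase, had 0 counts in the 3 PTPF libraries and 0, 0 and 1 in the STATF libraries. GSTM3, a mu-class transferase, had 0 counts in the 3 PTPF libraries and 0, 2 and 1 in the STATF libraries. MTHFD2, a mitochondrial folate enzyme of the ATF4 list, had 15, 14 and 7 counts in PTPF libraries and 6, 6 and 9 in STATF libraries.

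SOD2, the mitochondrial superoxide dismutase, is carried by 2 identifiers in the count table. The abundant one, ENSG00000112096, averaged 3857 ± 176 CPM in PTPF libraries and 2695 ± 47.5 CPM in STATF libraries (SD, n = 3 each). The log2 fold change was 0.52 (edgeR adjusted p = 4.53e-07, SE 0.0628). The other had 0 to 4 counts per library.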
